A study of Mus musculus with 8 samples.

Results

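MHC class II presentation genes were followed in the bone marrow (BM) of leukemic mice that differ in their Gab2 genotype. Gab2 is a scaffold protein that relays signals from receptor tyrosine kinases. The 7 genes, H2-Aa, H2-Ab1, H2-Eb1, Cd74, Ciita, H2-DMa and H2-DMb1, were chosen for their part in class II presentation, with earlier results of these data known. All 7 are among the 13305 genes counted. Whole BM of 8 C57BL/6N mice was sequenced, with 1 library per mouse: 3 AML WT (Gab2+/+), 2 AML HET (Gab2+/-) and 3 AML KO (Gab2-/-) mice. All 8 mice, the AML WT mice included, also carried Mx1-Cre, Dnmt3a+/- and Flt3ITD/ITD, so no healthy marrow is part of the comparison. Mx1-Cre answers to interferon and is not specific to a cell type. In this model it recombined the floxed Dnmt3a allele spontaneously, without an injected inducer. The Gab2 knockout allele holds a neomycin cassette in place of several exons, so that counts summed over the gene still include its remaining exons. The labels do not state the age of the sequenced mice.

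MHC class II molecules present peptides from endosomes to CD4+ T cells and are made mainly by dendritic cells, B cells, macrophages and some monocytes. An alpha and a beta chain, here H2-Aa with H2-Ab1, assemble on the invariant chain Cd74, which blocks the peptide groove until it is degraded, after which H2-DM, a dimer of H2-DMa and a beta chain such as H2-DMb1, exchanges its last fragment for a peptide. Ciita is the coactivator that switches these genes on, by joining RFX, CREB and NF-Y proteins that sit on the X and Y boxes of their promoters.

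Most of these genes are neighbours. In GENCODE M21 on GRCm38, H2-DMa (ENSMUSG00000037649, chr17:34119541-34139101), H2-DMb1 (ENSMUSG00000079547, chr17:34153072-34160230), H2-Ab1 (ENSMUSG00000073421, chr17:34257689-34269419), H2-Aa (ENSMUSG00000036594, chr17:34282744-34287823) and H2-Eb1 (ENSMUSG00000060586, chr17:34305867-34316674) form a cluster on chromosome 17, with H2-Aa on the minus strand and the others on the plus strand. Ciita (ENSMUSG00000022504) lies apart, on chromosome 16 at chr16:10480059-10528418.

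The promoters of H2-Aa and H2-Eb1 are shown because these chains had similar fold changes, and that of H2-DMb1 because its fold change was near 0. The capitals mark letters of an X box (CNNGNAAC) and of a Y box (ATTGG). The letters were searched on both strands of RefSeq windows of GRCm38.p6. These run from 250 bases before to 50 bases after each RefSeq start. The X letters had to begin 20 to 50 bases before the Y letters. H2-Aa is given at chr17:34287824-34287973 on the minus strand, H2-Eb1 at chr17:34305717-34305866 on the plus strand, and H2-DMb1, of which only the X letters and what follows them are printed, at chr17:34153090-34153119 on the plus strand.
H2-Aa: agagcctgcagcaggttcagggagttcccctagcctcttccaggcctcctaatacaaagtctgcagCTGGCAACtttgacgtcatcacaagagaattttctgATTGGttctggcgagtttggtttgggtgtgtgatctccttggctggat
H2-Eb1: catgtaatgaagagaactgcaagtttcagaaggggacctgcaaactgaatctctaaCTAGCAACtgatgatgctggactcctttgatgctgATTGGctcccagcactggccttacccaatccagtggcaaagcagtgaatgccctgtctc
H2-DMb1: ttacCTAGTAACtgatgatgctaggctgat

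In H2-Aa, the X letters began 84 and the Y letters 48 bases before the RefSeq start. In H2-Eb1 these distances were 94 and 59 bases, and in H2-DMb1 they were 97 and 61 bases. The GENCODE gene of H2-DMb1 begins earlier, at chr17:34153072, so the stretch shown lies inside that gene. Such a pair was found in 419 of 32851 windows (1.28%), while the X letters, with or without the Y letters, were found in 39.1% and the Y letters in 37.4%. The letters were written down after these promoters had been read, and a match describes the sequence without showing that a protein binds there. Neither of the 2 windows of H2-DMa, which both lie inside its GENCODE gene, holds the pair of letters. H2-Ab1, Cd74 and Ciita have no window in the table used here.

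The libraries held between 28009258 and 39266815 counts, and the smallest count of any of the 7 genes in a mouse was 567, for Ciita in AML KO replicate 3. Levels are given as CPM, counts scaled to library size by TMM, and differences as log2 fold changes with a standard error (SE) from edgeR's quasi-likelihood test, with p adjusted by the Benjamini-Hochberg method over all 13305 genes and a threshold of 0.05. Gab2 itself, the check on the labels, had a level of 61.6 to 93.9 CPM in AML WT, 50.8 to 55.8 in AML HET and 35.0 to 47.2 in AML KO mice, without overlap between neighbouring genotypes. Replicates are separate mice, and the labels name no batch.

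Divided by exon length, Cd74 had the highest level in AML WT BM, at 1249 ± 459 CPM per kilobase (SD, n = 3). H2-Eb1 followed at 523 ± 248 and H2-Ab1 at 499 ± 214 CPM per kilobase, which differed by less than their SD. H2-Aa was at 334 ± 141 CPM per kilobase. H2-DMa, at 93.7 ± 29.0, and H2-DMb1, at 89.5 ± 38.0 CPM per kilobase, could not be told apart either. Before this division, H2-DMa had the higher count in every mouse. Ciita stood lowest at 6.30 ± 0.69 CPM per kilobase. In AML KO BM, Cd74 was again highest, at 539 ± 151 CPM per kilobase, and Ciita lowest, at 2.45 ± 0.93 (SD, n = 3).

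Between AML KO and AML WT BM, Ciita fell, and it was the only one of the 7 genes past the adjusted threshold. The alpha and beta chains and Cd74 had lower values at about 2-fold but did not pass, and the levels of both H2-DM genes lay close together in the 2 genotypes. Over all genes, 2.09% passed the adjusted threshold in either direction and 0.323% passed it and were lower in AML KO. With p taken before adjustment, 5 of the 7 genes were lower under 0.05, against 7.88% of all genes. In 3 of the 7, H2-Aa, Cd74 and Ciita, every AML KO mouse lay below every AML WT mouse, against 9.83% of all genes. In whole BM, fewer cells of a type and less RNA per cell cannot be told apart.

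**Figure D1:**
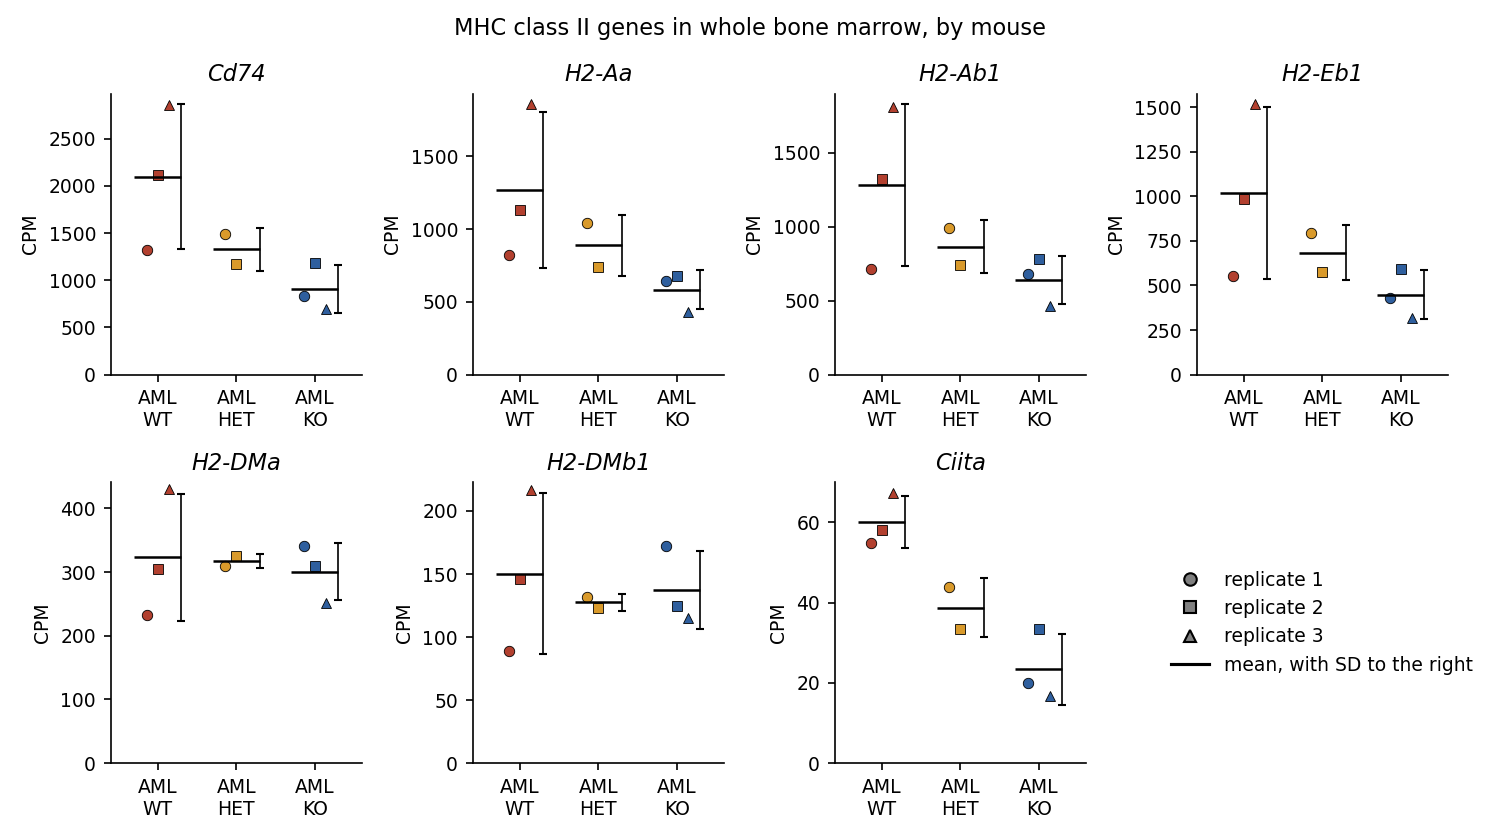
CPM (linear axes from 0) of the 7 MHC class II genes in each of the 8 mice, with symbols for the replicate number, a bar for the mean and a whisker for the SD. Ciita runs from 54.7 to 67.4 CPM in AML WT and from 16.7 to 33.5 CPM in AML KO mice, while the H2-DMa and H2-DMb1 points of the genotypes overlap.

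Ciita was measured at 54.7, 58.1 and 67.4 CPM in the 3 AML WT mice, at 43.9 and 33.5 CPM in the 2 AML HET mice, and at 20.01, 33.5 and 16.7 CPM in the 3 AML KO mice. The AML WT mice lay close together and above all others, and the AML KO mice lay lowest, with AML KO replicate 2 at nearly the level of the lower AML HET mouse. AML WT mice averaged 60.1 ± 6.55 CPM (SD, n = 3), and AML KO mice 23.4 ± 8.89 CPM (SD, n = 3). The level was thus changed by −1.36 on the log2 scale (SE 0.25, adjusted p = 0.0233 from edgeR), or a level 2.57-fold lower in AML KO. An exact two-sided permutation test of the 3 mice against 3 gave p = 0.1, the smallest p that this design allows. The call was lost when AML WT replicate 2 (adjusted p = 0.0883), AML KO replicate 1 (0.0789) or AML KO replicate 3 (0.0847) was left out of the edgeR fit. It was also lost in an edgeR fit with the replicate number as a block (adjusted p = 0.125).

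Cd74 (ENSMUSG00000024610, on chromosome 18), the invariant chain, was measured at 1317, 2118 and 2858 CPM in AML WT, at 1492 and 1169.6 CPM in AML HET, and at 837, 1187 and 692 CPM in AML KO mice. AML KO and AML WT mice did not overlap, while AML HET mice overlapped with both. Cd74 differed by −1.21 on the log2 scale (SE 0.29, adjusted p = 0.0736 from edgeR; unadjusted p = 0.00204), a level 2.32-fold lower in AML KO that did not pass the threshold.

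The alpha chain H2-Aa was measured at 819.8, 1130.45 and 1860.3 CPM in AML WT, at 1039 and 741 CPM in AML HET, and at 642, 679 and 430.0 CPM in AML KO mice. AML KO mice lay below both other genotypes without overlap, although AML WT replicate 1 lay between the 2 AML HET mice. Against AML WT, AML KO mice had a log2 fold change of −1.12 (SE 0.30, adjusted p = 0.108 from edgeR).

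Its partner H2-Ab1 was measured at 713, 1325 and 1811 CPM in AML WT, at 993 and 739 CPM in AML HET, and at 678, 779 and 465 CPM in AML KO mice. Here AML KO replicate 2 lay above AML WT replicate 1, so that the genotypes overlapped. H2-Ab1 differed by −1.001 on the log2 scale (SE 0.32, adjusted p = 0.177 from edgeR).

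H2-Eb1, the beta chain of the second class II isotype, was measured at 553, 983 and 1516 CPM in AML WT, at 792 and 575 CPM in AML HET, and at 432, 595 and 320.2 CPM in AML KO mice. The C57BL/6 background is known to lack the functional alpha chain that would bring this protein to the surface. Again AML KO replicate 2 overlapped with AML WT replicate 1. H2-Eb1 differed by −1.18 on the log2 scale (SE 0.35, adjusted p = 0.149 from edgeR).

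For Cd74 and the 3 chains, AML WT replicate 1 had the lowest and AML WT replicate 3 the highest level of the AML WT mice. Without AML WT replicate 1, all 4 passed the threshold in edgeR, with adjusted p of 0.0262 for Cd74, 0.0388 for H2-Ab1, 0.0411 for H2-Eb1 and 0.0457 for H2-Aa, beside 0.278% of all genes that passed it and were lower in AML KO. Without AML WT replicate 3, none of the 4 passed, and the log2 fold changes were −0.74 for H2-Aa, −0.67 for H2-Ab1, −0.78 for H2-Eb1 and −0.93 for Cd74, with adjusted p from 0.148 to 0.238. Without AML KO replicate 2, Cd74 passed as well (adjusted p = 0.0485), and in the other fits that left out 1 mouse none of the 4 passed. With DESeq2, these 4 genes and Ciita passed, so that 5 of the 7 genes were called lower, against 1.71% of all genes. As the 4 moved together over the mice, the 5 are not separate results.

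H2-DMa was measured at 233, 305 and 431 CPM in AML WT, at 310.1 and 325 CPM in AML HET, and at 340.2, 309.8 and 252 CPM in AML KO mice. H2-DMb1 was measured at 88.8, 145.8 and 216 CPM in AML WT, at 132 and 123 CPM in AML HET, and at 172, 124 and 115 CPM in AML KO mice. For both subunits of H2-DM the AML KO mice lay within the range of the AML WT mice. Set against AML WT, AML KO mice had a log2 fold change of −0.10 for H2-DMa (SE 0.21, adjusted p = 0.805 from edgeR) and −0.13 for H2-DMb1 (SE 0.28, adjusted p = 0.816). Both values turned above 0 without AML WT replicate 3, at 0.16 for H2-DMa and 0.23 for H2-DMb1, and that of H2-DMa also without AML KO replicate 3, at 0.01.

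Of the 50-base stretches of H2-DMb1 transcripts, 22.7% also occur in its neighbour H2-DMb2, and 8.43% of those of H2-DMa lie in Brd2, which overlaps it on the opposite strand. For Ciita this share was 1.46%, all in Dexi, and for H2-Aa it was 0.514%, while H2-Ab1, H2-Eb1 and Cd74 shared none. Dexi overlaps Ciita on the opposite strand. Mir5107, a microRNA gene that was also counted, overlaps exons of Cd74 on the same strand, which leaves reads there uncertain. Whether the counting used strand is not given in the sources used here, which leaves reads of H2-DMa and Brd2, and of Ciita and Dexi, uncertain where they overlap, and reads of H2-DMb1 uncertain where it resembles H2-DMb2.

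AML HET mice, which keep a single functional Gab2 allele, had mean levels between those of the other genotypes for the chains, Cd74 and Ciita, but none of the 7 genes passed the adjusted threshold against AML WT. In all, 3 of 13305 genes passed it (0.0225%), and 0.0% passed it with a lower level in AML HET. Ciita was the one gene of the 7 without overlap, against 8.61% of all genes that were lower without overlap. Its mean level in AML HET was 38.7 ± 7.33 CPM (SD, n = 2), with a log2 fold change of −0.63 (SE 0.27, adjusted p = 0.990 and unadjusted p = 0.0443 from edgeR). It was also the only one of the 7 with a lower level at an unadjusted p under 0.05, as were 0.819% of all genes. The other log2 fold changes ran from −0.66 for Cd74 to −0.02 for H2-DMa. Without AML WT replicate 3, Cd74 stood at −0.36 and H2-Aa at −0.12, and without AML HET replicate 2, Ciita stood at −0.45.

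Between AML KO and AML HET BM, none of the 7 genes and 0.0% of all genes passed the adjusted threshold in edgeR, while 780 genes had an unadjusted p under 0.05 and DESeq2 called 77. Ciita and H2-Aa were lower in AML KO without overlap, against 11.0% of all genes. For Ciita the groups nearly touched, at 33.48 CPM in AML KO replicate 2 and 33.52 CPM in AML HET replicate 2. The log2 fold change of Ciita was −0.73 (SE 0.27, adjusted p = 0.767 and unadjusted p = 0.0227), and it was the one of the 7 lower at an unadjusted p under 0.05, as were 2.34% of all genes. H2-Aa was at −0.61 (SE 0.33, adjusted p = 0.850). Without AML HET replicate 1, Ciita stood at −0.52 and H2-Aa at −0.34. H2-DMb1 was the only one of the 7 with a value above 0, at 0.11 (SE 0.32), and it turned to −0.083 without AML KO replicate 1. All 3 comparisons come from 1 fit and share mice, so their values are given side by side and not as separate evidence.

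**Figure D2:**
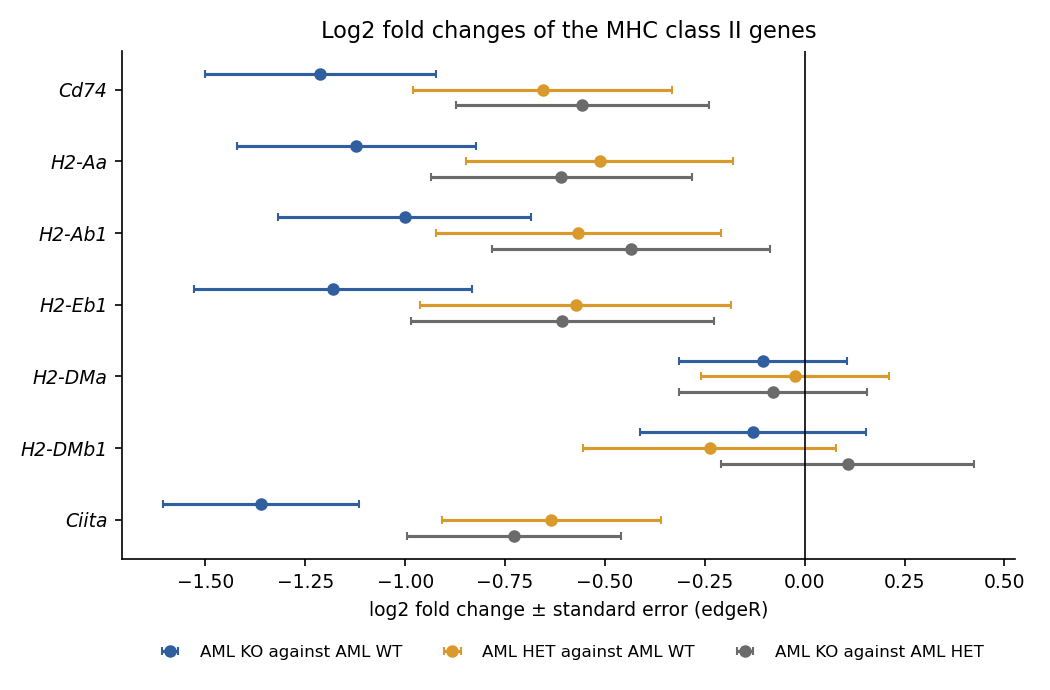
Log2 fold changes (x axis) of the 7 genes with their SEs (bars) from edgeR in the 3 comparisons, by colour. Between AML KO and AML WT, Ciita, Cd74, H2-Eb1, H2-Aa and H2-Ab1 lie between −1.36 and −1.001, and H2-DMa and H2-DMb1 lie at −0.10 and −0.13.

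Ratios of counts within a mouse do not depend on library scaling. They were added, and H2-DMa was taken as a denominator, after the levels had been seen, so they are given as descriptions with no test. Per count of H2-DMa, the AML WT mice held 5.65, 6.94 and 6.63 counts of Cd74, and the AML KO mice held 2.46, 3.83 and 2.75. The mice of the 2 genotypes did not overlap in this ratio, nor in those of H2-Aa, H2-Ab1, H2-Eb1 and Ciita to H2-DMa. In CPM, the genotypes did overlap for H2-Ab1 and H2-Eb1. The share of all genes without overlap in a ratio to H2-DMa was not computed, so these ratios have no background beside them. H2-Aa stood at 3.85 ± 0.42 counts per count of H2-DMa in AML WT mice, with 1.93 ± 0.24 in AML KO mice (SD, n = 3), a log2 difference of −0.999. The corresponding log2 difference was −0.86 for H2-Ab1, −1.04 for H2-Eb1, −1.11 for Cd74 and −1.35 for Ciita. AML WT replicate 3, which had the highest level of H2-Aa, also had the highest level of H2-DMa.

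The ratio of H2-Ab1 to H2-Aa, the partners of 1 dimer, was 1.005 ± 0.15 in AML WT mice, with 1.09 ± 0.05 in AML KO mice (SD, n = 3), and these ranges overlapped.

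Ptprc, which encodes the leukocyte antigen CD45, was also used as a denominator. Its own level was 570.2 to 572 CPM in AML WT and 319 to 422 CPM in AML KO mice (log2 fold change −0.59, SE 0.14, adjusted p = 0.0742 from edgeR). Ptprc thus lay lower in AML KO mice without overlap, as did 9.83% of all genes, while summed neutrophil markers lay higher. A ratio to Ptprc therefore also holds the change of Ptprc itself and is not a level per leukocyte. Per count of Ptprc, Ciita was at 0.0958, 0.102 and 0.118 in the AML WT mice and at 0.0628, 0.0794 and 0.0422 in the AML KO mice. In the AML HET mice this ratio was 0.0746 and 0.0706, below AML KO replicate 2. AML KO and AML WT mice did not overlap, with a log2 difference of −0.82 (−0.57 without AML KO replicate 3). The share of all genes without overlap in a ratio to Ptprc was not computed. The ratios of Cd74, H2-Eb1, H2-Aa and H2-Ab1 to Ptprc did overlap, with log2 differences of −0.58, −0.51, −0.47 and −0.33. Without AML WT replicate 3 these were −0.32, −0.16, −0.15 and −0.033, and without AML WT replicate 1 they were −0.88, −0.89, −0.74 and −0.70. H2-DMa and H2-DMb1 had higher mean ratios in AML KO, by 0.53 and 0.54 on the log2 scale, also with overlap. Leaving out 1 mouse gave 0.32 (without AML KO replicate 1) to 0.76 (without AML WT replicate 3) for H2-DMa and 0.21 (without AML WT replicate 1) to 0.85 (without AML WT replicate 3) for H2-DMb1.

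**Figure D3:**
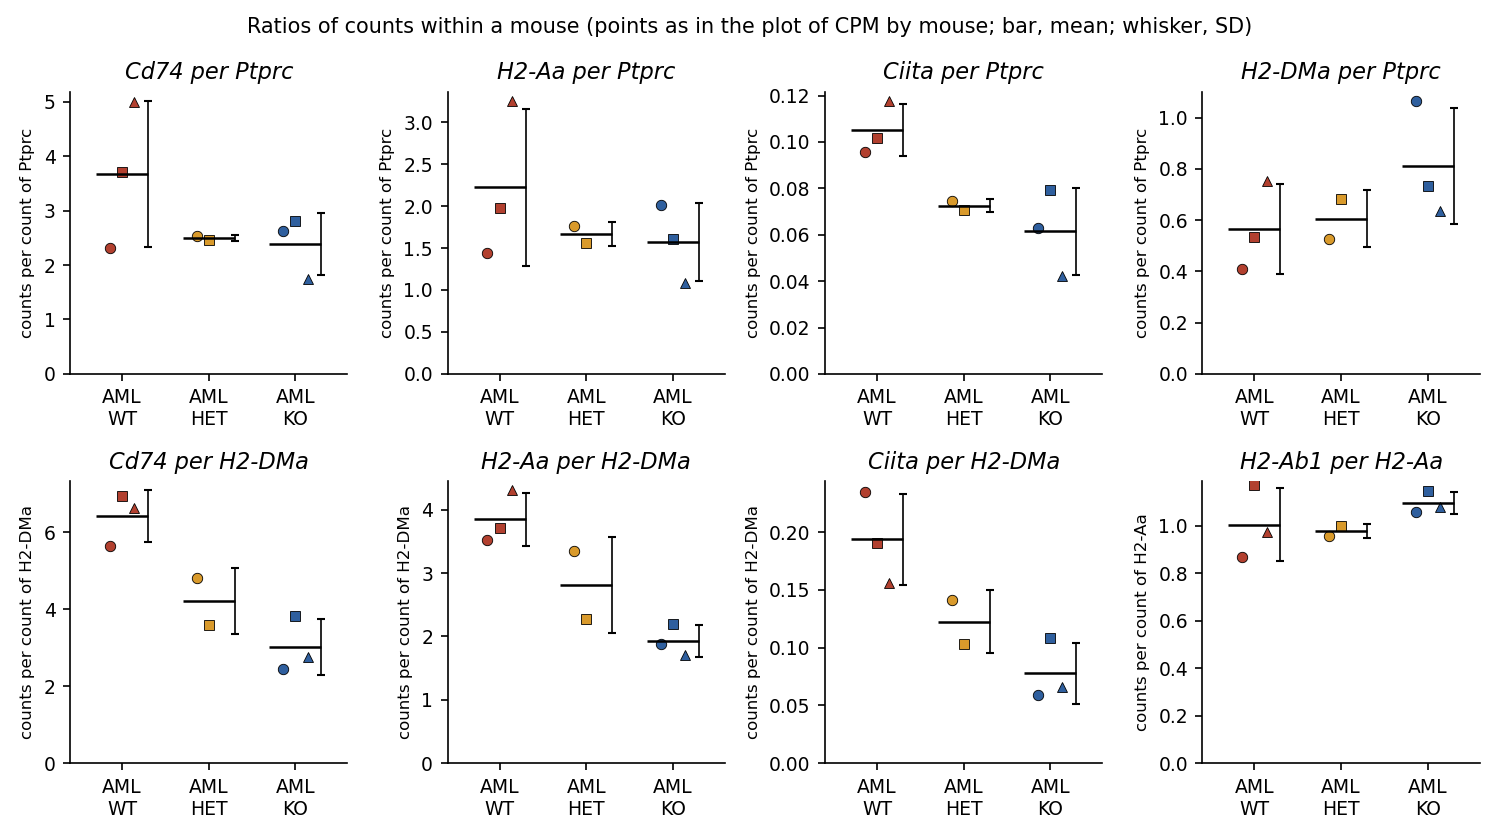
Ratios of counts within each mouse (linear axes from 0), per count of Ptprc in the first 4 panels, per count of H2-DMa in the next 3 and of H2-Ab1 to H2-Aa in the last, with bars for means and whiskers for SD. Cd74, H2-Aa and Ciita per count of H2-DMa, and Ciita per count of Ptprc, show no overlap of AML KO and AML WT mice. The share of all genes without overlap in such ratios was not computed.

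Of 50 further gene symbols listed around class II presentation, 44 were counted. The symbols not counted include Marchf1 and Marchf8, other names of March1 and March8, which were counted. None of the 44 genes passed the adjusted threshold between AML KO and AML WT. At an unadjusted p under 0.05, 9 were lower and 1 was higher, against 7.88% and 9.77% of all genes. Their median log2 fold change was −0.23, beside −0.02 for all genes. The remaining class II genes of the cluster all had values below 0. H2-Eb2, a second E beta gene of low expression, was at 1.28 to 5.63 CPM in AML WT and 0.13 to 1.49 CPM in AML KO mice (log2 fold change −2.28, SE 0.88, adjusted p = 0.244). H2-DMb2, the other H2-DM beta chain, had a log2 fold change of −0.60 (adjusted p = 0.256). H2-Ob and H2-Oa, which form the H2-DM inhibitor H2-O, had values of −0.45 (adjusted p = 0.259) and −0.23 (adjusted p = 0.583). The RefSeq windows of H2-Oa, H2-Ob and H2-Eb2 hold the paired X and Y letters as well. That of H2-DMb2, which lies inside its GENCODE gene, does not.

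The 8 genes for the DNA-bound partners of Ciita and for its coactivator Crebbp stayed within −0.29 and 0.25 on the log2 scale, and 0 passed, with 0 at an unadjusted p under 0.05 in edgeR. Crebbp, Rfx5 and Rfxap had the largest values, at −0.29, −0.27 and 0.25. Of the 11 counted genes that induce or repress Ciita, 0 passed and 3 were lower at an unadjusted p under 0.05, against 7.88% of all genes. These were Irf4, a transcription factor of dendritic and B cells, at 38.4 to 44.5 CPM in AML WT and 19.8 to 28.6 CPM in AML KO mice (log2 fold change −0.72, adjusted p = 0.0585), the kinase Jak2 (−0.48, adjusted p = 0.168) and the interferon gamma receptor chain Ifngr1 (−0.43, adjusted p = 0.272). Without AML KO replicate 2, 2 genes of this list passed with lower levels. Prdm1, a repressor of Ciita, had a value of −0.69 (adjusted p = 0.308). Irf1 and Irf8, named after their values had been seen, were at 0.01 and −0.02.

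The 8 genes of endosomal processing had a median of −0.22, and 0 passed, with 0 at an unadjusted p under 0.05. Sppl2a, which clears the last piece of Cd74 from the membrane, was at −0.40 (adjusted p = 0.304), and Ctss, the protease that trims Cd74, at −0.33 (adjusted p = 0.293). Cd83, which keeps class II molecules at the surface of mature dendritic cells, was at 13.8, 18.1 and 35.1 CPM in AML WT and at 7.49, 10.8 and 4.89 CPM in AML KO mice. These ranges did not overlap, but the log2 fold change of −1.54 did not pass (SE 0.42, adjusted p = 0.122). March1, the ubiquitin ligase that removes class II molecules, was at −0.40 (adjusted p = 0.232), and March8 at 0.35 (adjusted p = 0.338). All 5 costimulation genes had values below 0 with 0 past the threshold, led by Cd40 at −0.55, Cd86 at −0.54 and Cd80 at −0.40. Among 5 ligands and coreceptors of Cd74, Cxcr2 was highest at 1.16 (adjusted p = 0.0762), and it also serves as a marker of neutrophils. Ddt and Mif, both ligands of Cd74, were at 0.53 and 0.27.

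The 12 genes of class I presentation, which samples the cytosol in nearly all cells, had a median of 0.15, with 7 above and 5 below 0 and none past the threshold (1 higher and 1 lower at an unadjusted p under 0.05). Tap2, a peptide transporter subunit, was at 0.64 (adjusted p = 0.185), and Nlrc5, the class I counterpart of Ciita, at −0.60 (adjusted p = 0.283). Erap1, which trims class I peptides, was at −0.46 (adjusted p = 0.280).

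**Figure D4:**
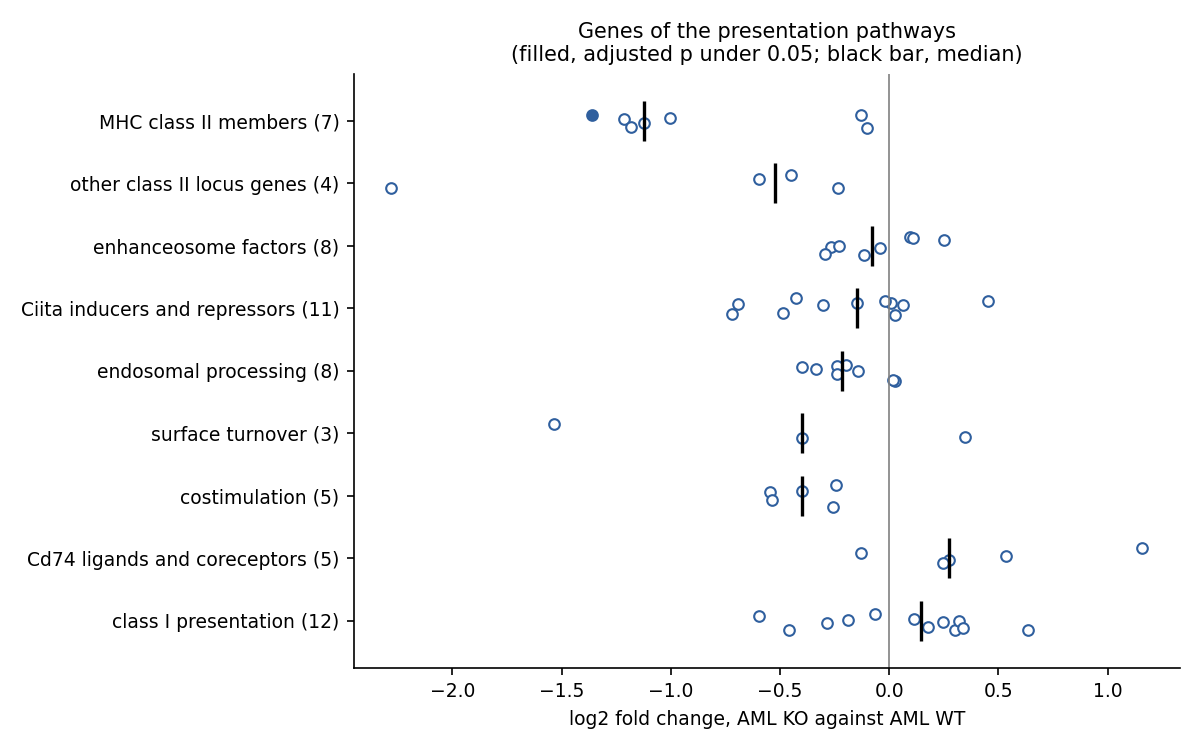
Log2 fold changes between AML KO and AML WT (x axis) of single genes, by list, with the number of counted genes in brackets, filled points for an adjusted p under 0.05 and a black bar for the median. Ciita at −1.36 is the filled point, the median of the 7 class II genes lies at −1.12, and that of the class I genes lies at 0.15.

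Markers of the cells that carry class II were read beside these results. Of 11 markers of conventional dendritic cells, all 11 had values below 0 between AML KO and AML WT, with a median of −0.63, and no marker was at 0 in any mouse. Over all genes, 6904 of 13305 had values below 0. At an unadjusted p under 0.05 in edgeR, 5 of the 11 were lower, against 7.88% of all genes. Without overlap, 4 of the 11 were lower, against 9.83% of all genes. The summed level of these markers was 1600.3 to 2068 CPM in AML WT, 1553 to 1588 CPM in AML HET and 1238 to 1487 CPM in AML KO mice, without overlap between AML WT and AML KO. The largest parts of this sum were Sirpa, Naaa, Wdfy4 and Clec10a, with means of 583, 318, 263 and 221 CPM over the 8 mice. Sirpa had a log2 fold change of −0.12. Itgax, which encodes CD11c, fell from 34.0 to 55.6 CPM in AML WT to 15.6 to 24.0 CPM in AML KO mice (log2 fold change −1.10, SE 0.23, adjusted p = 0.0457 from edgeR). This call held without AML WT replicate 1 (adjusted p = 0.0427) and without AML KO replicate 2 (0.0408), and was lost without any of the other 6 mice, with adjusted p up to 0.174 (without AML KO replicate 3). Ccr7, which guides mature dendritic cells to lymph nodes, was at −1.52 (adjusted p = 0.285), and Zbtb46, a transcription factor of these cells, at −0.97 (adjusted p = 0.0868). The part of these markers in the class II values was not tested.

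The 10 monocyte markers all had values below 0, with a median of −0.37 and none past the threshold. At an unadjusted p under 0.05 in edgeR, 4 of the 10 were lower, against 7.88% of all genes. Without overlap, 3 of the 10 were lower, against 9.83% of all genes. The sum of the monocyte markers was 5006 to 5855 CPM in AML WT, 4661 to 5089 CPM in AML HET and 3723 to 5164 CPM in AML KO mice, with overlap. Fcgr1, an IgG receptor, was the lowest of them at −1.10 (adjusted p = 0.0829), followed by Cd14 at −0.67 (adjusted p = 0.226). Of the 12 counted B cell markers, 8 had values above and 4 below 0, and their sum was 45.4 to 94.2 CPM in AML WT and 66.1 to 99.97 CPM in AML KO mice. The 9 markers of plasmacytoid dendritic cells summed to 245 to 354 CPM in AML WT and 221 to 319 CPM in AML KO mice, with 3 above and 6 below 0, a median of −0.20 and Ccr9 lowest at −1.39 (adjusted p = 0.0708). The largest part of this sum was Bst2, with a mean of 137 CPM over the 8 mice and a log2 fold change of 0.07. At an unadjusted p under 0.05 in edgeR, 4 of the 9 were lower and 0 higher, against 7.88% and 9.77% of all genes. Without overlap, 2 of the 9 were lower, against 9.83% of all genes. In neither list did a gene pass the threshold. No marker of these lists was at 0 in any mouse, and their part in the class II values was not tested. The 11 T and NK cell markers (9 above and 2 below 0) and the 8 stroma and endothelium markers (5 above and 3 below 0) had no gene past the threshold either.

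Markers of 3 lineages that make little class II moved the other way. Of 10 neutrophil markers, 6 rose past the threshold, against 1.77% of all genes, and the sum of the list was 1279 to 4669 CPM in AML WT, 5376 to 6050 CPM in AML HET and 10403 to 17056 CPM in AML KO mice. Of 11 erythroid markers 9 rose, with sums of 318 to 449 CPM in AML WT, 692 to 2203 CPM in AML HET and 1529.7 to 5392 CPM in AML KO mice. Of 10 megakaryocyte and platelet markers 9 rose, with sums of 88.7 to 123 CPM in AML WT, 124 to 159.5 CPM in AML HET and 319 to 428 CPM in AML KO mice. Leaving out single mice left 0 to 9 neutrophil, 0 to 10 erythroid and 7 to 10 megakaryocyte markers past the threshold, and the lowest of these counts came without AML WT replicate 2. Among 12 macrophage markers, Cd5l (log2 fold change 2.31), Slc40a1 (1.17) and Vcam1 (1.02) rose and Mrc1 (−0.87) fell, but leaving out 1 mouse lost the call of Cd5l in 6 of 8 fits, of Vcam1 in 6, of Mrc1 in 3 and of Slc40a1 in 2, and without AML WT replicate 2 none of these calls held. The summed macrophage markers were at 493 to 576 CPM in AML WT and 337 to 517 CPM in AML KO mice. With library sizes taken without the neutrophil, erythroid and megakaryocyte markers, the log2 fold change of Ciita was −1.36 (adjusted p = 0.0234 from edgeR). Only the listed marker genes were taken out, and the other RNA of these cells stayed in. This scaling therefore does not correct for the mixture of cells. The part of the other cells in the class II values was not tested.

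**Figure D5:**
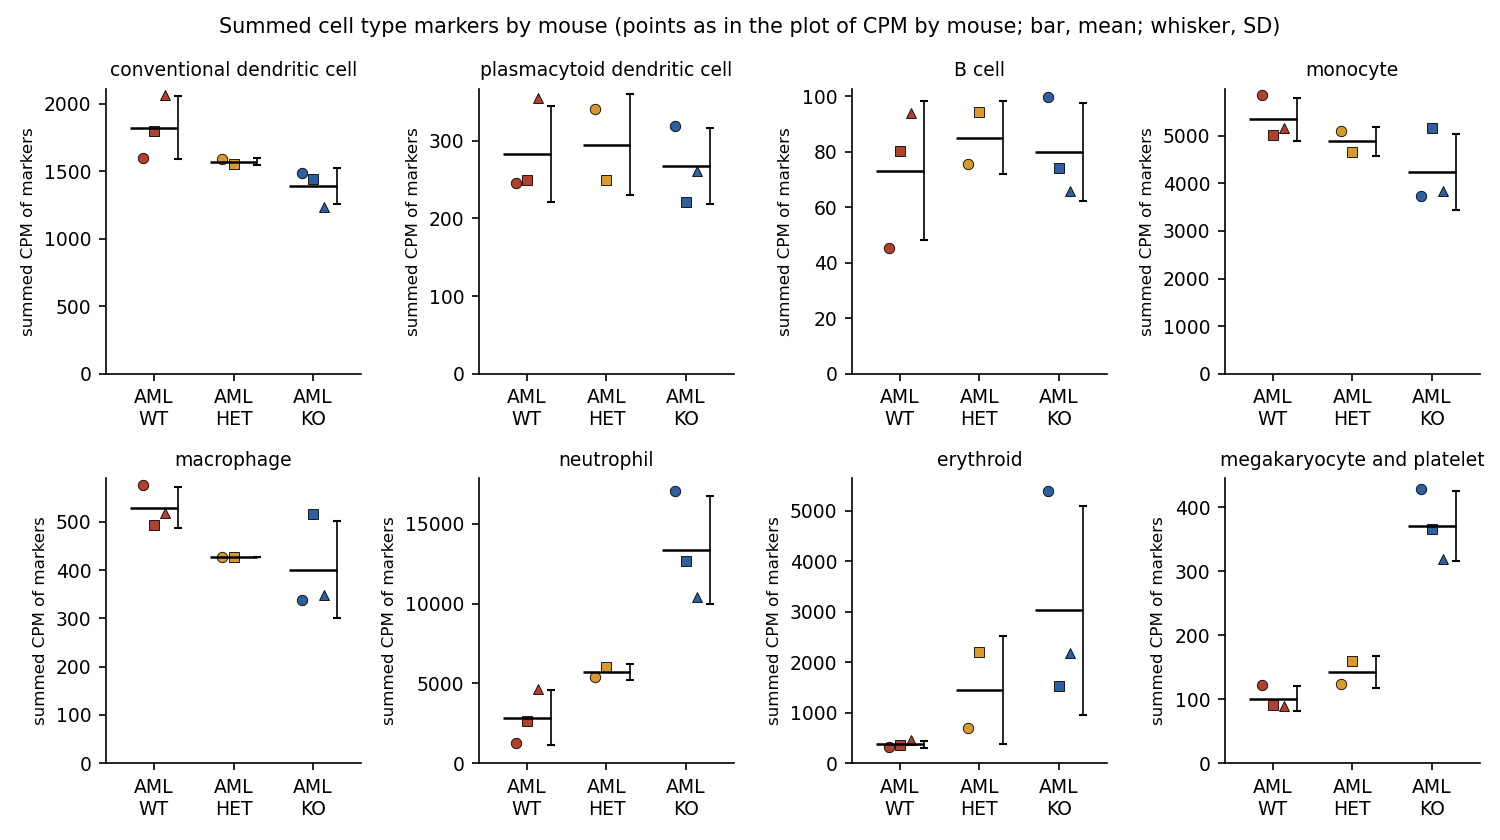
Summed CPM (linear axes from 0) of the markers of 8 cell types in each mouse, with bars for means and whiskers for SD. Sums of conventional dendritic cell markers run from 1600.3 to 2068 CPM in AML WT and from 1238 to 1487 CPM in AML KO mice, and neutrophil sums from 1279 to 4669 CPM and from 10403 to 17056 CPM.

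Genes whose level followed that of H2-Aa, H2-Ab1, H2-Eb1 and Cd74 over the 8 mice were ranked by Pearson's r of log2 CPM with the mean of these 4 genes, over 12682 genes with a mean of at least 1 CPM. All points share the genotype groups and the libraries, so r is a description. The highest value was that of Plbd1, a lysosomal phospholipase-like protein, with r = 0.987. It was followed by the bacterial sensor Nod2 (0.975), the lysosomal protease Ctsh (0.973), Gpr162 (0.968), Ctss (0.967), the amino acid oxidase Il4i1 (0.965), the NF-kappa-B inhibitor Nfkbie (0.965), the actin-bundling protein Fscn1 (0.963), Bcl2a1d (0.961) and Cd83 (0.949). The value was 0.890 for Ciita, 0.647 for H2-DMa and 0.571 for H2-DMb1, and 51 genes had r above 0.9. By Spearman's rank correlation, 1 of these 10 genes was among the 10 highest.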

How the data were processed

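Total RNA of freshly isolated whole BM was sequenced by the authors. They deposited 1 table of raw counts per gene and mouse, without normalization. Per the submitters' processing notes, Trimmomatic 0.36, STAR 2.5.2b and mm10 were used, while the counter, its annotation and its use of strand are not given in the sources used here. Of 13305 Ensembl identifiers, 13266 were named from GENCODE M21. The lowest sum of a gene over the 8 mice was 106 counts.

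Counts were fitted in R 4.3.3 with edgeR 4.0.16 (TMM, robust quasi-likelihood test, genotype as the only term, all 8 mice), and p was adjusted over all genes by the Benjamini-Hochberg method. filterByExpr removed 0 genes. Standard errors were derived from the F statistic, and log2 CPM used a prior count of 2. Single values were compared with exact permutation tests in SciPy 1.17.1. Alternatives were DESeq2 1.42.0, limma-voom (limma 3.58.1), other scalings and filters, a replicate block and each mouse left out. Ratios to Ptprc and to H2-DMa were chosen after seeing the data.

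The 7 genes and the 19 further lists were chosen with earlier results of these data known. Named were the 7 genes, Gab2, Ptprc, those past the threshold and up to 3 with the largest fold change in each list, and the 10 genes most like the class II genes. Some of the genes that this rule covers are left out, and others named, such as Ifngr1, Irf1, Irf8, March1 and March8, were chosen after their values were seen.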

Additional observations from a re-analysis of the deposited data

How the results depend on the processing

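The log2 fold changes of Ciita, Cd74, H2-Aa, H2-Ab1 and H2-Eb1 kept their sign in all 3 comparisons under each alternative run. Between AML KO and AML WT, DESeq2 made H2-Aa (−1.12), H2-Ab1 (−1.004), H2-Eb1 (−1.18) and Cd74 (−1.21) pass the threshold, with adjusted p from 0.00101 to 0.0278. Leaving out each mouse in turn gave −1.37 to −0.74 for H2-Aa, −1.30 to −0.67 for H2-Ab1, −1.49 to −0.78 for H2-Eb1, −1.47 to −0.93 for Cd74, −1.71 to −1.17 for Ciita, −0.30 to 0.16 for H2-DMa and −0.41 to 0.23 for H2-DMb1. Ciita passed in 5 of these 8 fits. Between AML HET and AML WT the same ranges were −0.78 to −0.12 for H2-Aa, −0.85 to −0.23 for H2-Ab1, −0.87 to −0.16 for H2-Eb1, −0.90 to −0.36 for Cd74, −0.84 to −0.45 for Ciita, −0.21 to 0.25 for H2-DMa and −0.50 to 0.13 for H2-DMb1. Between AML KO and AML HET they were −0.83 to −0.34, −0.63 to −0.21, −0.87 to −0.36, −0.81 to −0.37, −1.08 to −0.52, −0.17 to 0.034 and −0.083 to 0.22, in the same order of genes. H2-DMa in AML HET against AML WT also turned to 0.018 with limma-voom and 0.059 with the replicate block.

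The count of genes past the threshold between AML KO and AML WT was 278, and it was 730 with DESeq2, 157 among genes with a mean of at least 5 CPM, where fewer genes were tested, 19 with the replicate block, and 40 (without AML WT replicate 2) to 370 (without AML KO replicate 2) with 1 mouse left out. Between AML HET and AML WT it was 3, and it was 59 with DESeq2, 1 with limma-voom, 1 among genes with a mean of at least 5 CPM, 5 with only the mice of the 2 groups, 0 with the block (294 at an unadjusted p under 0.05) and 1 to 5 with 1 mouse left out. Between AML KO and AML HET it was 0, and it was 77 with DESeq2, 3 with only the mice of the 2 groups and 0 to 4 with 1 mouse left out. The cause of these differences was not tested.

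Whether the replicate numbers pair the mice is not stated in the labels. The correlation of deviations from the group means was over 0.1 in 1 of 7 pairs with the same number. It ran from −0.51 to 0.29. With so few mice per genotype these deviations depend on each other, so this check cannot exclude a pairing. With the replicate number as a block, Ciita stood at −1.40 between AML KO and AML WT (adjusted p = 0.125).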

Other observations

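After genotype means were subtracted, the genes whose log2 CPM followed H2-Aa, H2-Ab1, H2-Eb1 and Cd74 most closely over the 8 mice were Stx11 (Pearson's r = 0.991), Arc (0.990), the NF-kappa-B subunit Relb (0.989), Platr17 (0.985), the shared cytokine receptor chain Il2rg (0.982), Nfkbie (0.973), Ctss (0.972), Stbd1 (0.970), Slamf8 (0.970) and Nsmce2 (0.969). Of these 10 genes, 2 (Nfkbie and Ctss) were also among the 10 ranked without that subtraction. Stx11 had r = −0.21 before the subtraction. Within genotypes, H2-DMa had r = 0.873 and H2-DMb1 r = 0.819, and over all 8 mice they had 0.647 and 0.571, while Ciita had 0.720 within genotypes and 0.890 over all mice. These values are descriptions over few mice that share libraries.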
